A study of Mus musculus with 22 samples.

Results

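The genes described here were those of the immunoglobulin heavy and light chains that were read in at least 1 tumor. Of 46882 genes in the expression table, 377 carried a symbol of a variable (V) or constant segment or of a heavy chain D segment, and 22 of these had a count above 0 in a tumor. These 22 were 11 constant genes and 11 V genes. The members were selected on the counts themselves, as genes with a count above 0 in any tumor, so detection in tumors is a description and not a finding. Just inside the rule stood V genes with 1 read in 1 tumor, such as Ighv1-58, and just outside it stood Ighv1-79 with 1 read, Ighv10-4 with 1 read and Igkv4-56 with 2 reads, all of them read in skin and in no tumor. The constant genes Ighg3 and Iglc4, 333 V genes and all 20 D segments were outside the rule, and the D segments and 14 joining (J) segments had 0 reads in every library.

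MC38 is a mouse colon adenocarcinoma cell line, and the study injected it under the skin of wild-type mice and of RAG1-/- mice, which cannot form mature B or T lymphocytes. Libraries of tumor RNA were compared for wild-type C57BL/6N mice at day 23 and at day 46 after injection and for B6.129S7-Rag1tm1Mom/J mice at day 13 and day 23, with 3 tumors in each of these 4 groups. The mice were female and 8 to 12 weeks old at injection, so host age and day after injection cannot be told apart. The same table held 2 libraries of skin of wild-type C57BL/6N mice, labelled day 23, and 2 of MC38 cells in culture, labelled day 0. RNA of a whole tumor piece holds cancer cells together with host cells, so fewer B-lineage cells and less immunoglobulin RNA per cell cannot be told apart. All tumors came from 1 cell line, skin of RAG1-/- mice was not analysed here, and only day 23 was shared by both genotypes.

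An antibody is built of 2 heavy and 2 light chains. V segments are joined to J segments, and in the heavy chain to D segments as well, by an enzyme that contains RAG1, and without it no complete chain is made. The constant gene used by the heavy chain sets the isotype: Ighm gives IgM, Ighd IgD, the Ighg genes IgG, Ighe IgE and Igha IgA. The light chain is either kappa, with the single constant gene Igkc, or lambda, with Iglc1 to Iglc4. Naive B cells carry IgM and IgD, plasma cells secrete very large amounts of antibody, and IgA is known above all from mucosal surfaces, where it is joined into dimers by the J chain (Jchain).

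The reads came from a 3′ library, in which a message gives a tag near its 3′ end. The constant exons lie at that end, whereas the V exon lies at the 5′ end of the same message. Levels below are therefore normalized counts that were not divided by gene length. Gene positions are those of GENCODE on GRCm38, the assembly also called mm10. On this build Igkc lies at chr6:70726435-70726966 on the plus strand, Igha at chr12:113254830-113260236, Ighm at chr12:113418558-113422730, Ighg2c at chr12:113285325-113288932 and Ighg2b at chr12:113302965-113307933, all 4 of the last on the minus strand. The lambda genes Iglc1 at chr16:19061618-19062071, Iglc2 at chr16:19198396-19200351 and Iglc3 at chr16:19065230-19065681 were also on the minus strand.

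The last 60 coding bases show how alike the light chain genes are at their coding ends. They were taken from the GENCODE transcripts and are written in the direction of transcription. A 3′ tag can also lie in the untranslated stretch after them, which is not shown. In the lambda genes, capitals mark the 13 bases that differ from Iglc1. Igkc is shown for comparison, without capitals.
Iglc1: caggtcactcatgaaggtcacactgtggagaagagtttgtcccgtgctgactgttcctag
Iglc2: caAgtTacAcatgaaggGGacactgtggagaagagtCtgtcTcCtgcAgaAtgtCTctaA
Iglc3: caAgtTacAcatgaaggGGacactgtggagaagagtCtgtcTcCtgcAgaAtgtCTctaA
Igkc: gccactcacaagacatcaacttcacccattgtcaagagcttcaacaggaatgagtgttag
Iglc2 and Iglc3 were identical over these 60 bases, shared 96.2% of their coding bases and had a stretch of 79 identical bases in their transcripts. Iglc1 and Iglc2 shared 74.4% of coding bases and no stretch longer than 19 bases. The counts of Iglc2 and Iglc3 are therefore uncertain, because only 1 alignment of a read with several possible places was kept. Among the IgG genes, the transcripts of Ighg2b and Ighg2c had a shared stretch of 78 bases, so a part of their reads is uncertain in the same way.

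Each heavy chain constant gene makes a secreted and a membrane form, and these 2 forms end differently. For the 2 heavy chain genes with most reads, the ends of the coding sequence are given with the last 12 shared bases in lower case and the bases particular to each form in capitals.
Ighm secreted: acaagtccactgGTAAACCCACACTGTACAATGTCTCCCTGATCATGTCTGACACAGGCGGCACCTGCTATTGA
Ighm membrane: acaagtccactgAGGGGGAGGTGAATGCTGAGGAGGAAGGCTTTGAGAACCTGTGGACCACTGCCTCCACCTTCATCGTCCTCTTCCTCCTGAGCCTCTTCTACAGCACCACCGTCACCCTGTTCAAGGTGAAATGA
Igha secreted: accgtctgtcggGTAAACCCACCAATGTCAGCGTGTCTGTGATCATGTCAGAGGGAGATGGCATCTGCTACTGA
Igha membrane: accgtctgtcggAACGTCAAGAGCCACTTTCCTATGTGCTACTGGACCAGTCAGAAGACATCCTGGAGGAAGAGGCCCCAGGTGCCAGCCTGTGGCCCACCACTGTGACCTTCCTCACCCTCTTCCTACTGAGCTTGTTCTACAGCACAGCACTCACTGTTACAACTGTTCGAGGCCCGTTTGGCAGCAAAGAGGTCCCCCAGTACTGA
The deposited counts are per gene, so the 2 forms were counted together in every value below.

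The 16 libraries held between 5589151 and 26134241 reads on genes, both extremes among the tumors labelled RAG1-/- of day 23. In normalized counts, a floor of 3 reads corresponded to between 1.33 and 6.38. The targeted gene Rag1 had 0 reads in 5 wild-type tumors and 1 in the other, while all 6 tumors labelled RAG1-/- had some, with 1, 1 and 12 at day 13 and 4, 1 and 4 at day 23. Because the place of these 3′ reads relative to the altered part of the gene is not given, Rag1 reads check nothing about the labels. The T cell receptor gene Trac had 5 to 53 reads in each wild-type tumor and 0 reads in all 6 tumors labelled RAG1-/-. Another such gene, Trbc1, had 7 to 52 reads and 0 to 40 reads in the same tumors.

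Light chain RNA was the clearest difference between the genotypes. Wild-type tumors held Igkc in every library and tumors labelled RAG1-/- held almost none. Igkc stood at 131, 287 and 50.7 normalized counts in the wild-type tumors of day 23 and at 137, 184 and 243 in those of day 46. In the tumors labelled RAG1-/- it was at 0 in all 3 tumors of day 13 and at 1.31, 0 and 1.77 at day 23. The 2 genotypes did not overlap. Summed over tumors, these values rest on 1347 of 82525512 reads against 5 of 72396588 reads. The ratio of the pooled normalized levels was 237 (95% counting interval 101 to 730). Of the 5 reads, 4 were in replicate 3 of day 23, and without that tumor the ratio was 763 (137 to 30176).

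In the fit across all genes with limma on log2(normalized count + 1), Igkc was higher in wild-type tumors by 6.08 at day 23 (log2, SE 0.62, adjusted p = 0.000256) and by 6.80 over both days (SE 0.44, adjusted p = 7.60e-07). These were the largest fitted increases among the 14746 genes tested in either comparison. The two-sided exact permutation test of 6 against 6 tumors gave p = 0.00216, the smallest value that design allows. The comparison over both days sets day 23 and day 46 against day 13 and day 23, so time and genotype are matched only at day 23.

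Lambda constant RNA was scarcer. Iglc1 was read in 5 of 6 wild-type tumors, at 8.11, 36.7 and 0 normalized counts at day 23 and at 7.82, 5.37 and 8.79 at day 46, and had 0 reads in all 6 tumors labelled RAG1-/-. The 84 wild-type reads against a floor of 3 reads over the group put the pooled level of Iglc1 at least 24.6-fold higher in wild-type tumors. This bound was 14.3 without replicate 2 of the wild-type tumors of day 23, which held 43 of the reads, and 15.9 without replicate 3 of the tumors labelled RAG1-/- of day 23, the deepest library. One wild-type tumor had no read, so the groups touched at 0, and the difference did not pass the threshold over all genes (log2 fold change 2.92 over both days, SE 0.77, adjusted p = 0.121 with limma). The exact permutation test gave p = 0.0152. Without replicate 3 of the wild-type tumors of day 23, which was the tumor with no read, Iglc1 passed (log2 fold change 3.62, adjusted p = 0.0174 with limma).

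The near-identical pair was close to the floor. Iglc2 had 6 reads in wild-type tumors and 2 in the tumors labelled RAG1-/-, a ratio of 2.63 (95% counting interval 0.471 to 26.7). Iglc3 had 7 reads and 1 read, a ratio of 6.15 (0.790 to 277). Both intervals include 1, so no difference was detectable at this depth. Of the 6 wild-type Iglc2 reads, 5 were in replicate 1 of day 23, and without that tumor the ratio was 0.540 (0.00915 to 10.4). Without replicate 3 of the tumors labelled RAG1-/- of day 23 the ratios were 1.70 for Iglc2 and 3.97 for Iglc3, and without the tumor of day 13 labelled RAG1-/- that held every read of its genotype they were at least 1.51 for Iglc2 (replicate 2) and at least 1.71 for Iglc3 (replicate 3).

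**Figure D1:**
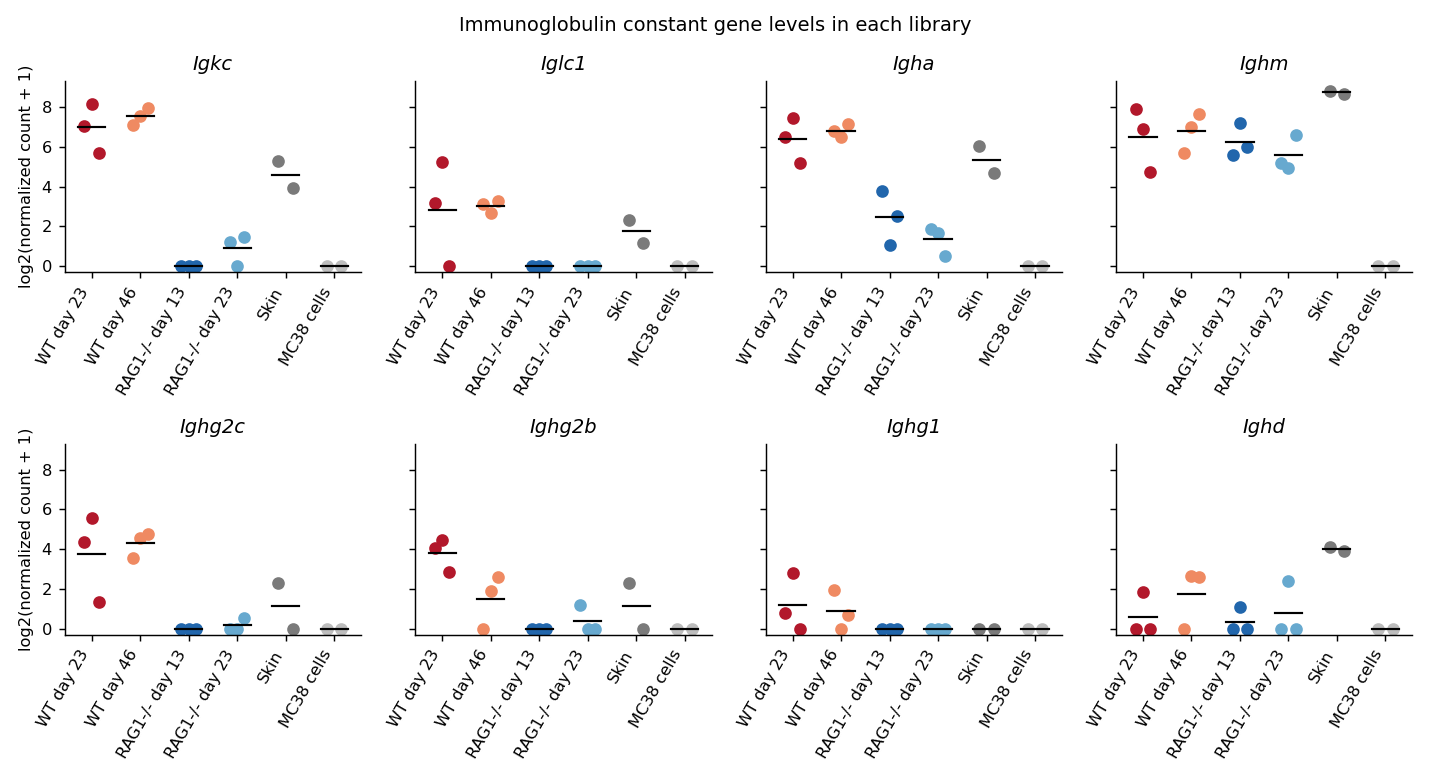
Levels of 8 constant genes in each library on the log2(normalized count + 1) scale, with 1 point per library and a line at the mean of each group on that scale. Igkc, Igha and Ighg2c were higher in each of the 6 wild-type tumors than in each tumor labelled RAG1-/-, whereas Ighm overlapped between the genotypes and was highest in skin.

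IgA was the main switched isotype. Igha stood at 88.5, 173 and 34.9 normalized counts in the wild-type tumors of day 23 and at 109, 90.0 and 138 in those of day 46. In the tumors labelled RAG1-/- it was at 12.8, 1.11 and 4.76 at day 13 and at 2.62, 2.13 and 0.442 at day 23. Igha was thus read in every tumor of both genotypes, and the lowest wild-type value was above the highest of the others. The pooled ratio was 32.4 (95% counting interval 21.2 to 52.0) on 811 and 22 reads.

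Igha rose in wild-type tumors by 5.02 at day 23 (log2, SE 0.69, limma adjusted p = 0.00580) and by 4.68 over both days (SE 0.49, adjusted p = 0.000207), and the exact permutation test gave p = 0.00216. Of the 22 Igha reads in tumors labelled RAG1-/-, 12 came from 1 tumor of day 13, replicate 1, and without that tumor the pooled ratio was 60.8 (95% counting interval 32.9 to 127). Igkc and every other light chain constant gene had 0 reads in that tumor.

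The IgG genes followed in the order Ighg2c, Ighg2b and Ighg1. Ighg2c stood at 19.9, 46.9 and 1.58 normalized counts in the wild-type tumors of day 23 and at 10.7, 22.8 and 26.4 in those of day 46, against 0 in 5 tumors labelled RAG1-/- and 0.442 in the other. The groups did not overlap, although the lowest wild-type value was a single read. The change was 3.95 over both days (log2, SE 0.66, limma adjusted p = 0.0106) with p = 0.00216 in the exact permutation test. At day 23 alone it was 3.60 (SE 0.94) and did not pass (limma adjusted p = 0.133).

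Ighg2b had 21, 25 and 4 reads in the wild-type tumors of day 23, 0, 4 and 8 reads in those of day 46, and 1 read in all 6 tumors labelled RAG1-/- together. The pooled ratio was 54.5, with a wide counting interval of 9.42 to 2185. Of the tumors labelled RAG1-/- of day 23, leaving out replicate 3 gave 35.1 (6.08 to 1410), and leaving out replicate 1, which held the only read, gave at least 16.0-fold. Its mean over the tumors was under 5 normalized counts, so it was not in the fit, and the exact permutation test gave p = 0.0152. Ighg1 had 12 reads over 4 wild-type tumors and 0 in the tumors labelled RAG1-/-, a pooled level at least 3.51-fold higher, with p = 0.0606 in the exact permutation test. That bound was 1.75 without replicate 2 of the wild-type tumors of day 23 and 2.27 without replicate 3 of the tumors labelled RAG1-/- of day 23. Exact tests were run for 11 constant genes and their p-values were not adjusted.

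Ighm, unlike Igha and Ighg2c, did not separate the genotypes. Ighm stood at 238, 118 and 25.4 normalized counts in the wild-type tumors of day 23 and at 50.8, 126 and 201 in those of day 46. The tumors labelled RAG1-/- held 47.1, 147 and 61.9 at day 13 and 35.3, 29.8 and 94.1 at day 23. The groups overlapped over most of their range. The pooled ratio was 1.84 (95% counting interval 1.65 to 2.05), an interval that covers counting error and not the spread between tumors. The fitted difference was 0.94 at day 23 (log2, SE 0.71, limma adjusted p = 0.657) and 0.73 over both days (SE 0.50, adjusted p = 0.619), and the exact permutation test gave p = 0.255. The 95% interval of the difference over both days ran from -0.33 to 1.79 on the log2 scale, which does not show equal levels.

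The Ighm reads of the tumors labelled RAG1-/- came almost without light chain reads. These 6 tumors held 495 reads of Ighm and 8 reads of all light chain constant genes. Light chains made up 41.2% ± 6.84 (SD, n = 6) of all constant reads in wild-type tumors. In the tumors labelled RAG1-/- this share was 1.32% ± 1.22 (SD, n = 6). The wild-type tumors lay between 28.2% and 47.0% and the others between 0% and 3.23%. In skin it was 8.05% and 3.39%.

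IgD and IgE were near the floor in tumors. Ighd had 3 reads in wild-type tumors of day 23, 16 in those of day 46 and 3 in the tumors labelled RAG1-/-, a pooled ratio of 5.56 (95% counting interval 1.64 to 29.3), and the exact permutation test gave p = 0.394. It was 15.5 (2.46 to 642) without replicate 2 and 3.59 (1.06 to 18.9) without replicate 3 of the tumors labelled RAG1-/- of day 23. Ighe was the only constant member with fewer reads in wild-type tumors, 3 against 4, a ratio of 0.659 (0.0965 to 3.89), and all 3 wild-type reads were in 1 tumor of day 46.

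Of the 22 members, 5 reached the mean of 5 normalized counts per tumor that the fit required, namely Igkc, Igha, Ighm, Ighg2c and Iglc1. At day 23, 2 of the 5 (Igkc and Igha) were higher in wild-type tumors and 0 lower, where 0.231% of all tested genes were called higher and 0.0475% lower (0.278% in all). Over both days, 3 of the 5 were higher and 0 lower, where 0.57% of all tested genes were called higher and 0.142% lower (0.712% in all). Every wild-type tumor was above every tumor labelled RAG1-/- for 3 members, Igkc, Igha and Ighg2c, as it was for 0.651% of all tested genes. At day 23 alone the same held for these 3 of the 5 members in the fit and for 8.5% of all tested genes. Ighg2b, which was not in the fit, was also apart at day 23, at 6.34 or more in wild-type tumors and 1.31 or less in the others. A sparse gene passes such a filter mostly through the group where it is high, so these counts describe the 5 genes and are no measure of the 22. With no filter, all 22 members were tested, and 2 were called at day 23 and 3 over both days. The shares of all genes given above belong to the filtered set, so they are no background for these last counts.

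**Figure D2:**
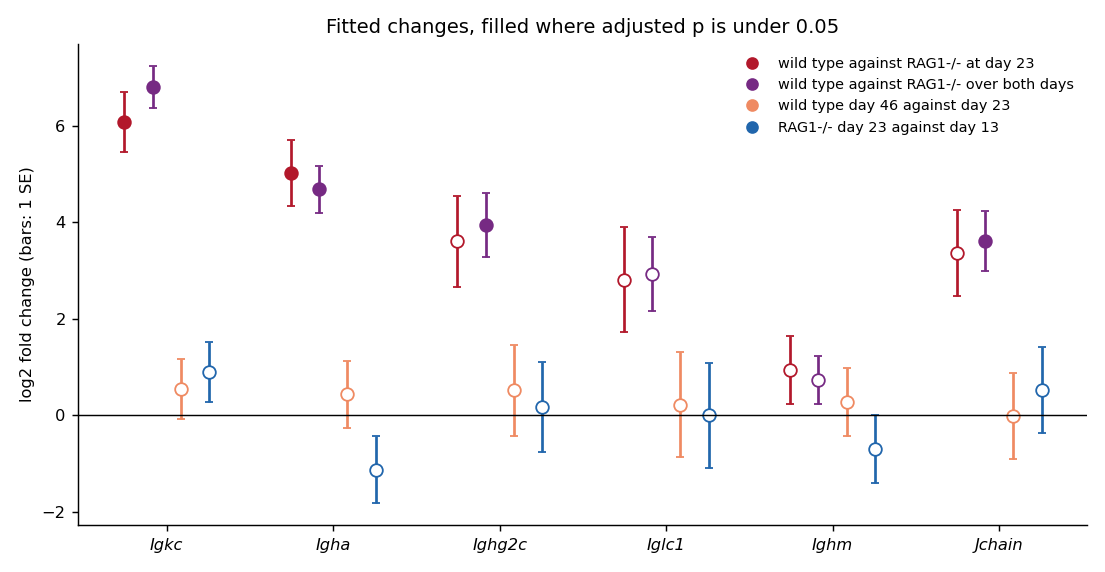
Fitted log2 fold changes with 1 SE for the 5 members in the fit and for Jchain, in 4 comparisons of tumor groups. Filled points passed an adjusted p of 0.05: Igkc and Igha in both genotype comparisons, Ighg2c and Jchain over both days, and no gene in the comparisons of days.

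Isotype content varied widely between wild-type tumors. IgA made up 43.1% ± 13.5 (SD, n = 6) of heavy chain constant reads, IgM 44.7% ± 14.2 and IgG 11.4% ± 4.51. The IgA share was lowest in a tumor of day 23, replicate 1, with 24.4% of 491 reads (95% Wilson interval 20.8 to 28.4), where Ighm took 65.6%. It was highest in a tumor of day 46, replicate 1, with 62.9% of 178 reads (55.6 to 69.7), where Ighm took 29.2%.

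Heavy chain reads were also set against kappa. The number of Igha reads per Igkc read lay between 0.489 and 0.800 in the 6 wild-type tumors, with a mean of 0.638 ± 0.108 (SD). The number of Ighm reads per Igkc read lay between 0.371 and 1.82, with a mean of 0.769 ± 0.543 (SD). The highest was replicate 1 of day 23, and without it the Ighm values lay between 0.371 and 0.827, with a mean of 0.559 ± 0.193 (SD, n = 5), beside 0.629 ± 0.119 for Igha in the same 5 tumors. The difference in spread was not tested. In skin the 2 libraries had 1.71 and 1.73 Igha reads and 11.9 and 28.4 Ighm reads per Igkc read.

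Among switched isotypes IgA was the larger part in every wild-type tumor. Of the IgA and IgG reads together, 78.4% ± 7.11 (SD, n = 6) were Igha, between 70.0% and 88.9%. Among IgG reads, Ighg2c made up 55.1%, 63.2% and 1 of only 5 reads at day 23, and 78.6%, 89.5% and 82.4% at day 46. Kappa made up 94.2% ± 4.17 (SD, n = 6) of light chain constant reads, between 88.2% and 100%.

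In the tumors labelled RAG1-/- the heavy chain reads were 89.6% ± 8.47 (SD, n = 6) Ighm, and in skin 83.5% and 91.2%. IgA held 21.1% of 57 heavy chain reads (95% Wilson interval 12.5 to 33.3) in replicate 1 of day 13 and 0.463% to 7.04% in the other 5 tumors. IgG reads were 2 of 526 in all. As intervals on reads, these cover counting error only.

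**Figure D3:**
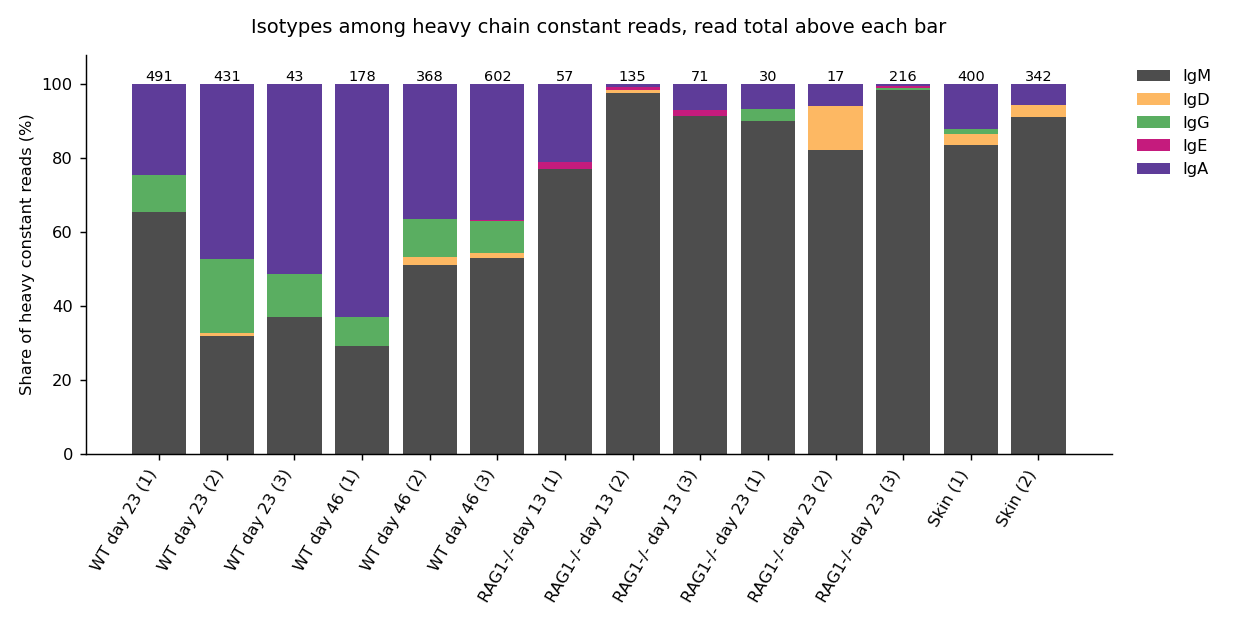
Share of each isotype among the heavy chain constant reads of a library in percent, with the number of such reads above each bar, for 12 tumors and 2 skin libraries. IgM filled 29.2% to 65.6% of the bar in wild-type tumors, 77.2% to 98.6% in the tumors labelled RAG1-/- and 83.5% and 91.2% in skin.

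V genes were almost unread. Of 344 V genes listed, 11 were members, and the 6 wild-type tumors held 5 V reads beside 3557 constant reads, 0.140% of both together. These 5 reads fell on 3 genes. Iglv1, the lambda V gene, had 2 reads in replicate 1 of day 23 and 1 read in replicate 3 of day 46, Ighv1-80 had 1 read in replicate 2 of day 23 and Ighv1-58 had 1 read in replicate 1 of day 46. The other 2 wild-type tumors had 0 V reads, and no kappa V gene was read in a wild-type tumor although Igkc had 1347 reads. No V gene usage can be read from 5 reads.

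The tumors labelled RAG1-/- held 14 V reads on 8 genes beside 534 constant reads. Of these, 6 fell on Ighv5-8 and 1 each on Ighv1-13 and Igkv6-20 in replicate 3 of day 23, the deepest library. Ighv5-18 had 2 reads in replicate 1 of day 23, where Igkv13-74-1 and Igkv20-101-2 had 1 read each. Ighv6-3 had 1 read in replicate 2 and Igkv17-134 had 1 read in replicate 1 of day 13. None of the 8 genes was read in a wild-type tumor, and each was read in a single tumor.

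The annotation gave 5 of the 11 V members a pseudogene model, and all 5 were read only in tumors labelled RAG1-/-. These were Ighv1-13, Ighv5-18, Ighv5-8, Igkv13-74-1 and Igkv17-134. The symbols Ighv1-13 and Ighv5-8 each named 2 overlapping models on opposite strands, so reads of these models cannot be told apart where the counting ignored strand. Ighv5-8, the V gene with most reads, has a pseudogene model at chr12:113654964-113655424 on the minus strand. Its other model lies at chr12:113654967-113655244 on the plus strand. The last exon of the pseudogene model, chr12:113654964-113655254, is given here as a segment on which the 6 reads could lie.
Ighv5-8 last exon: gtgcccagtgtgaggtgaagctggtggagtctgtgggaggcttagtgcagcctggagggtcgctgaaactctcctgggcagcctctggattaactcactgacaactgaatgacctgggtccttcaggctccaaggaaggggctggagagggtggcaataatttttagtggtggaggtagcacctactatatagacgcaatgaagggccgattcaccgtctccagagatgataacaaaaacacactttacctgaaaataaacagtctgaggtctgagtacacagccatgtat

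Between day 23 and day 46 of the wild-type tumors, 0 of the 5 tested members changed with limma, where 0% of all genes were called. None of the 5 had an unadjusted p under 0.05 with limma, where 1261 of the 14746 tested genes did. On recovered reads, edgeR and DESeq2 also called 0 members. The fitted changes were small beside their errors: 0.56 for Igkc (log2, SE 0.62), 0.44 for Igha (SE 0.69), 0.52 for Ighg2c (SE 0.94), 0.28 for Ighm (SE 0.71) and 0.23 for Iglc1 (SE 1.09). All 5 changes turned negative without replicate 3 of day 23, the tumor of its genotype with the fewest constant reads (75) and the lowest depth (7312850 reads). Of 11 constant genes compared, Ighg2b was the only one whose days did not overlap. It stood at 15.5, 21.3 and 6.34 normalized counts at day 23 and at 0, 2.69 and 5.02 at day 46. The exact permutation test gave p = 0.1, the smallest that 3 against 3 tumors allow. Any gene with separated days gets this value. The share of all genes with separated days was not counted, so this describes Ighg2b and is no finding about it.

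Between day 13 and day 23 of the tumors labelled RAG1-/-, 0 of the 5 members changed with limma, where 0% of all genes were called. None had an unadjusted p under 0.05 with limma, where 1722 of the 14746 tested genes did, and edgeR and DESeq2 called 0 members. Igha stood lower at day 23 by 1.12 (log2 fold change -1.12, SE 0.69) and Ighm by 0.69 (log2 fold change -0.69, SE 0.71), both short of the threshold. In a limma test of whether the change between days differed between genotypes, 0 members were called and 0 had an unadjusted p under 0.05. Of all 14746 tested genes, 0 were called there, so the count of 0 does not set the members apart. The change ran from day 23 to day 46 in wild-type tumors and from day 13 to day 23 in the others. The test therefore compared unlike times as well as genotypes.

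Skin and the tumor cells in culture gave the background. MC38 cells had 0 reads of all 22 members in 2 libraries with 24737727 reads. Skin held all isotypes seen in tumors apart from IgE, and within IgG apart from Ighg1, but in other proportions. Ighm stood at 447 and 398 normalized counts in skin, above all 12 tumors, and Ighd at 16.1 and 14.0, also above all 12. Igkc stood at 37.5 and 14.0, below the lowest wild-type tumor and above every tumor labelled RAG1-/-. Igha stood at 64.3 and 24.2, within and below the wild-type range.

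The order of groups by mean level was thus not the same for these genes. For Igkc it ran wild type day 46 (188), wild type day 23 (156), skin (25.8), RAG1-/- day 23 (1.03), then RAG1-/- day 13 and MC38 cells at 0. For Ighm it ran skin (423), wild type day 23 (127), wild type day 46 (126), RAG1-/- day 13 (85.3), RAG1-/- day 23 (53.1) and MC38 cells at 0. The days within a genotype overlapped for both genes. No test was made with skin or MC38 cells, since only genes read in a tumor are members.

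**Figure D4:**
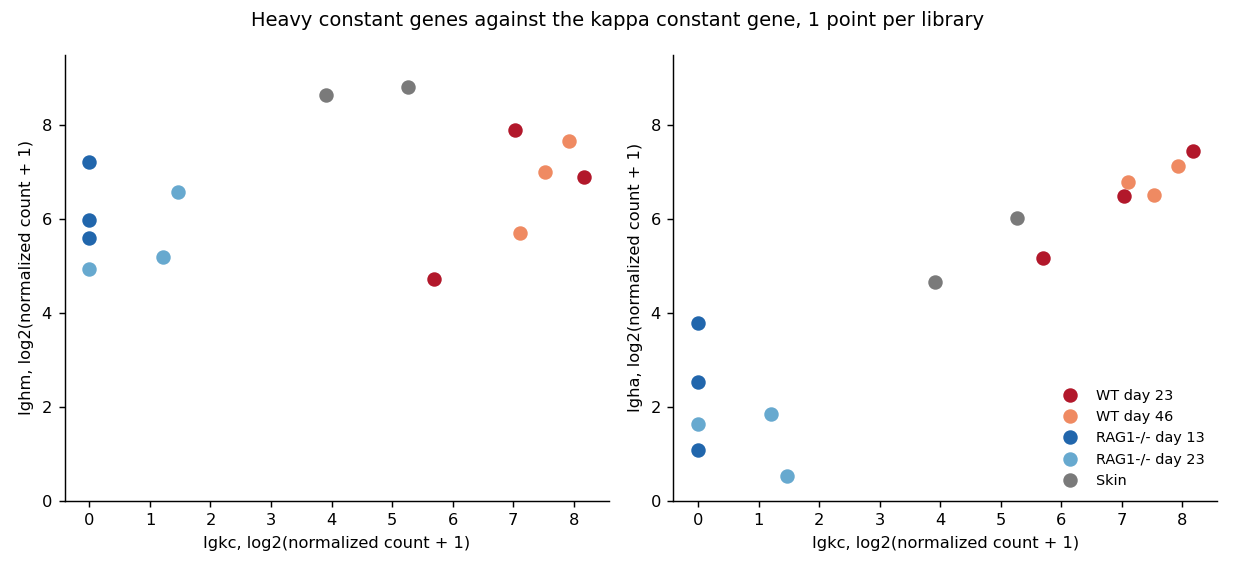
Ighm (left) and Igha (right) against Igkc in each tumor and skin library, all as log2(normalized count + 1), with 1 point per library. In the left panel the tumors labelled RAG1-/- reach the Ighm range of wild-type tumors at Igkc of at most 1.77 normalized counts, and skin combines the highest Ighm with lower Igkc than any wild-type tumor.

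Genes of B-lineage cells were looked at as lists of named genes. Jchain, the joining chain of IgA and IgM, was read in every wild-type tumor, 22, 92 and 4 times at day 23 and 24, 24 and 35 times at day 46. The tumors labelled RAG1-/- had 0 to 3 reads each, and no wild-type tumor fell into their range of 0 to 3.93 normalized counts. It rose over both days by 3.61 (log2, SE 0.63, limma adjusted p = 0.0115), and at day 23 alone the change was 3.36 (SE 0.89, adjusted p = 0.143). It was the 1 gene called among 10 tested of the 14 plasma cell and antibody secretion genes in the table, whose median change over both days was 0.07 beside 0.01 for all genes. With limma, 2 of the 10 had an unadjusted p under 0.05 over both days, Jchain and Fkbp11. Fkbp11 was lower in wild-type tumors (log2 -0.35, limma adjusted p = 0.174). There were 4 at day 23, with Jchain, Creld2 (0.80) and Xbp1 (0.53) higher and Fkbp11 (-0.43) lower. Of the list, limma and edgeR called 0 genes there and DESeq2 1. Of all 14746 tested genes, 1682 had an unadjusted p under 0.05 with limma over both days and 1646 at day 23. Counts at that level in this list and those below are to be read beside these. Sdc1, Xbp1 and Prdm1, which plasma cells share with many other cells, had changes over both days of 0.00, 0.09 and 0.43 and were not called.

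Among surface genes of B cells, several were almost absent. Cd79a, a signaling chain of the B cell receptor, had 3 reads over the 6 wild-type tumors and 0 reads in the tumors labelled RAG1-/-. Ms4a1, which encodes CD20, had 14 and 9 reads. Of the 17 B cell surface and signaling genes, 7 passed the filter and 0 were called over both days with limma, edgeR or DESeq2, with 0 at an unadjusted p under 0.05 and a median change of -0.03. At day 23 the median was -0.01, and 0 were called by the same 3 tools. There 2 had an unadjusted p under 0.05 with limma, Cd72 and Spib, both higher in wild-type tumors. The summed level of the 17 genes ranged from 559 to 1108 normalized counts in wild-type tumors and from 482 to 744 in the others. Most of it was Cd72 and Blnk, which were read in all 12 tumors. Of the plasma cell genes, Mzb1 had 11 reads in wild-type tumors and 2 in the others, and Tnfrsf17 had 0 and 3.

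The remaining lists gave few calls. In recombination and class switch, 2 of 9 genes passed the filter and 0 were called over both days by limma, edgeR or DESeq2, with 0 at an unadjusted p under 0.05 and a median of 0.19. At day 23 the 2 genes both had an unadjusted p under 0.05 with limma, in opposite directions. Vpreb1 was higher (log2 fold change 1.34) and Ung lower (-0.72) in wild-type tumors, and again 0 were called by limma, edgeR or DESeq2. Vpreb3, a gene of the B-lineage, was under the filter and not in the fit, and the wild-type tumors held 5, 4 and 8 of its reads at day 23, then 13, 6 and 4 at day 46. The tumors labelled RAG1-/- had 0, 0 and 1 at day 13 and 0, 0 and 1 at day 23, and in normalized counts the genotypes did not overlap. It was singled out after its values were seen, and it had 0 reads in skin. In B cell attractants and survival factors, 3 of 11 passed and 0 were called with limma, with 1 at an unadjusted p under 0.05 and a median of 0.68. That gene was Cxcl13, a chemokine that draws B cells, with a change of 2.21 (log2, SE 0.87, limma adjusted p = 0.330), and DESeq2 called 1 gene and edgeR 0. In antibody transport, 1 of 3 passed (Fcgrt, the neonatal Fc receptor, change 0.28) and 0 were called by limma, edgeR or DESeq2, with 0 at an unadjusted p under 0.05. The IgA transporter gene Pigr had 0 reads in all 6 wild-type tumors and 18 in the tumors labelled RAG1-/-.

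T cell genes also differed between the genotypes. Of the 9 T cell genes, 8 passed the filter and 6 were higher in wild-type tumors over both days (Cd3d, Cd3e, Cd8a, Cd8b1, Trac and Trbc2). Of all tested genes, 0.57% were called higher. A gene such as Cd3e, with a mean of 13.7 against 0, passed the filter only through the wild-type tumors. The median was 3.71, and the summed level of the list was 83.1 to 359 normalized counts in wild-type tumors and 5.56 to 34.3 in the others. Trbc1 and Cd4 overlapped between the genotypes over both days and were not called with limma. At day 23 alone, limma called 1 gene of the list (Cd8a) higher, where 0.231% of all tested genes were called higher. For that day edgeR called 1 gene of the list and DESeq2 6, and the median was 3.60. Cd3e, Cd3g, Cd8b1 and Trac were at 0 in all tumors labelled RAG1-/-, where Trbc1 had 0 to 40 reads, Trbc2 0 to 12 and Cd4 1 to 17. In lymph node stroma and high endothelial venules, 2 of 6 passed and 0 were called over both days by limma, edgeR or DESeq2, with 0 at an unadjusted p under 0.05, a median of 0.36 and Chst4 at 0 in wild-type tumors. At day 23 the median was 1.75, with 1 at an unadjusted p under 0.05 and 0 called by the same 3 tools. That gene was Ccl21a, a chemokine of lymph node stroma and lymphatic vessels, which at day 23 had 32, 12 and 22 reads under wild type and 0, 2 and 1 under RAG1-/-. Its change there was 3.45 (log2, SE 0.99, limma adjusted p = 0.178) without overlap, and over both days 0.56 (SE 0.70, adjusted p = 0.819) with overlap. Skin had 298 and 320 reads of it. The part of these cells in the immunoglobulin levels was not tested.

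Some of the keratinocyte genes set 1 wild-type tumor apart. Replicate 2 of day 23 had 159 reads of Krt5, 133 of Krt1 and 283 of Krtdap, where the other wild-type tumors had at most 2, 0 and 8. Others were also read elsewhere. Flg had 121 reads there, 77 in wild-type replicate 3 of day 46 and 35 in RAG1-/- replicate 3 of day 23. Krt14 had 387 reads there, 83 in wild-type replicate 3 of day 23 and 72 in RAG1-/- replicate 3 of day 23. Wild-type replicate 2 of day 23 also had the highest Igkc, Igha, Ighg2c, Iglc1 and Jchain of all tumors. Skin had 36356 and 36052 reads of Krt5 and 28 and 11 of Igkc. Over both days 6 of 7 keratinocyte genes passed the filter and 0 were called with limma, edgeR or DESeq2, with 1 at an unadjusted p under 0.05 and a median of 1.33, and the summed level was 231 to 1981 normalized counts in wild-type tumors and 379 to 480 in the others. At day 23 the median was 2.36, with 2 at an unadjusted p under 0.05 and 0 called by the same 3 tools. Without this tumor, Igkc and Igha were still called at day 23 and Igkc, Igha and Ighg2c over both days.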

How the data were processed

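RNA of 12 tumors, 2 skin samples and 2 MC38 cultures was measured with QuantSeq 3′ libraries on an Ion Proton. The authors trimmed reads with Cutadapt and Trimmomatic, removed reads under 22 nucleotides, aligned to mm10 with STAR and then Bowtie2, kept the primary alignment of reads with several places, removed ribosomal RNA and used HTSeq-count to count per gene. The deposited signal is the count per gene divided by a DESeq2 size factor. Versions, annotation and strand setting are not given in the sources used here. A second table holds 6 columns for the antibody-treated tumors. It was not used here, since its column names match no label.

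Dividing a library's values by its smallest value above 0 gave whole numbers for 100% of them (tolerance 0.001 of a read), so reads were recovered. These sum to the depths given above. Intervals and the floor of 3 reads cover counting error only. Ratios compare pooled reads over summed size factors, with an exact 95% interval, and leaving tumors out of them was chosen after seeing the data.

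The main test was limma 3.58.1 (run in R 4.3.3) with a trend on the log2 scale after adding 1 to each normalized count, over genes whose mean reached 5 in the 12 tumors, 4 groups in 1 fit, two-sided, with Benjamini-Hochberg adjustment over all tested genes and a threshold of 0.05. Fold changes on this scale understate those of low genes. Single genes were compared with two-sided exact permutation tests. Alternatives were edgeR 4.0.16 (22 genes called at day 23 and 111 over both days) and DESeq2 1.42.0 (239 and 285) on recovered reads, other pseudocounts, filters and scalings, no trend, fewer groups, the replicate number as a block and each tumor left out. The scripts were tested on simulated data. The labels number the replicates without naming animals, and the study describes taking RNA from 1 piece of an excised tumor. The p-values measure the spread between these samples.

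The members and gene lists were chosen with earlier results of these data known. Named genes were all constant members, members in the fit, the most read V members of each genotype and of skin, list genes and Rag1. Sequences and positions come from GENCODE on GRCm38, which held all 22 members.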

Additional observations from a re-analysis of the deposited data

Results flagged for a closer look

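Of 23 groups of 6 tumors examined, 10 had a highest sample whose gap to the next was over 0.625 of the whole range. The rate of about 1 in 20 for this limit holds for normally distributed values. It does not apply to counts near 0 or to groups that mix 2 days, so the 10 are not set against it. In wild-type tumors the samples over the limit were Iglc1 at 36.7 normalized counts in replicate 2 of day 23 (43 reads, next 8.79), Iglc2 at 3.69 in replicate 1 of day 23 (5 reads) and Ighe at 1.88 in replicate 3 of day 46 (3 reads). In tumors labelled RAG1-/-, Igha stood at 12.8 in replicate 1 of day 13 (12 reads, next 4.76), and the same tumor had an IgA share of 21.1% of heavy chain constant reads (next 7.04%). The other 5 rest on 1 or 2 reads each: Ighd at 4.26 in replicate 2 of day 23, Ighg2b at 1.31 in replicate 1 of day 23, Ighg2c at 0.442 in replicate 3 of day 23, Iglc2 at 2.22 in replicate 2 of day 13 and Iglc3 at 0.953 in replicate 3 of day 13. In a gene with so few reads a single read next to zeros is enough to exceed the limit. Without the tumor with high Iglc1, the fitted change of Iglc1 over both days was 2.31 (log2).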

How the results depend on the processing

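The number of members called stayed within 1.5 times its value under every alternative run, except that DESeq2 called 4 in place of 2 at day 23 (Igkc, Igha, Ighg2c and Iglc1). With tumors left out in turn, it was 2 to 2 at day 23, 3 to 4 over both days and 0 to 0 between days. Igkc and Igha passed the threshold in all 17 alternatives at day 23 and all 22 over both days, with adjusted p of up to 0.00958 and 0.0485 at day 23. Ighg2c passed in all 21 over both days (up to 0.0399) and Ighm in none. Of V members read in wild-type tumors, 3 in the main count, 1 was left with at least 3 reads and 1 in at least 2 tumors, and 2 to 3 with tumors left out. The kappa share ranged from 93.1% to 95.4% and the IgA share from 39.1% to 46.8% with tumors left out, and pooled reads gave 93.3% and 38.4%.

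Between days of wild-type tumors, directions were not stable. With edgeR the log2 changes of Ighg2c, Ighm and Iglc1 were -0.22, -0.028 and -1.07, with DESeq2 -0.21, -0.015 and -1.05, and Iglc1 had -0.19 with a pseudocount of 5. With tumors left out they ranged from -0.083 to 1.16 for Igkc, from -0.16 to 0.98 for Igha, from -0.68 to 1.42 for Ighg2c, from -0.61 to 0.98 for Ighm and from -1.18 to 1.44 for Iglc1. The cause was not tested.

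The count of all genes called at day 23 was 41 and ranged from 5 (without replicate 3 of the wild-type tumors) to 239 (DESeq2), and over both days it was 105 and ranged from 48 (no trend) to 285 (DESeq2). DESeq2 also called 43 and 206 genes between days, where limma called 0. Of 18 same-numbered pairs of tumors, 4 had deviations that correlated over 0.1 (range -0.24 to 0.25). Of these, 3 were all the pairs of wild type day 46 with RAG1-/- day 23. The labels give the tumors of such a pair only a number in common, and the cause was not tested. For no 2 groups of the same day or genotype was every pair over 0.1. With the replicate block 2 members were called at day 23, 3 over both days and 0 between days. Depth limits genes under about 3 reads a library.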
